A study of Mus musculus with 6 samples.

Results

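The antioxidant response genes examined here were 10 mouse genes: Nqo1, Hmox1, Gclc, Gclm, Txnrd1, Slc7a11, Srxn1, Gsr, Keap1 and Txn1. They were taken from a list of genes under the transcription factor NRF2, out of 21887 protein-coding genes of the RefSeq table for the mouse build GRCm38. A peak belonged to a gene when it overlapped the gene body or the 10 kb on either side, a span called the window of the gene below. All 10 genes were found in the table. Together their windows held 22 of 33013 MafA peaks in replicate 1, 25 of 42747 MafA peaks in replicate 2, and 16 of 16020 and 17 of 16904 H3K4me3 peaks in replicates 1 and 2.

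MIN6, a beta cell line from mouse that secretes insulin, was profiled by CUT&RUN, in which an antibody directs a nuclease to its target on chromatin and the released DNA is sequenced. Antibodies were directed at endogenous MafA, at H3K4me3 (positive control) or were plain IgG (negative control), with 2 replicates of each. All groups shared the line, 500000 cells per sample and permeabilisation with 0.01% digitonin, no genotype or drug treatment is given in the labels, and nothing says that replicates were separate cultures. No IgG peaks were used here, so the 4 lists analysed are those of MafA and H3K4me3.

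MafA is a basic leucine zipper factor that drives insulin gene transcription in beta cells, and it belongs to the MAF family. MAF proteins bind a long palindromic element whose centre is an AP-1 or CRE core. NRF2 binds the antioxidant response element as a partner of the small MAF proteins, so that this element shares its flank with the MAF site. KEAP1 holds NRF2 in the cytoplasm for degradation until oxidants or electrophiles modify it, and the genes below then supply glutathione, thioredoxin and other defences. Beta cells are known for a low capacity of several antioxidant enzymes. H3K4me3 marks the starts of active or poised genes.

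The strength of a peak is its fold enrichment. This is the authors' own ratio of the fragments piled up at its summit, after the peak caller's scaling, to the local background that the caller modelled. A region is the union of overlapping peaks of both replicates of a target, with the value of the strongest peak in each. Median fold enrichment over a whole list was 5.03 and 4.82 for MafA and 14.8 and 13.4 for H3K4me3. A median MafA summit held 25 and 46 fragments, counted before that scaling. As a check of the line, all 10 beta cell marker genes had a MafA region and 9 of them an H3K4me3 region at a start (Ins1 did not). Over all protein-coding genes the shares were 44.0% and 57.0%. Of 14 markers of other islet cells, exocrine cells, blood, endothelium and liver, 7 had a MafA region, near that share, and 1 (Gcg) the mark. Their highest MafA values were 22.0 at Alb and 16.1 at Gcg, inside the range of the beta cell markers (5.15 to 36.7).

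Promoter sequences show where the searched elements lay at the members' starts. RefSeq promoters of GRCm38.p6 were matched for 7 of the 10 genes, and 9 start sites in all, since Txnrd1 has 3; none was matched for Hmox1, Gclc and Gsr. Below are the 250 bases before the start, 5′ to 3′ in the direction of transcription, for Srxn1, whose start carried the strongest MafA peak at any member's start, for Txnrd1 at its middle start and Gclm, which hold an antioxidant response element core, and for Slc7a11, which was overlapped by a MafA region and holds no searched motif. Capitals mark the matches. They lie at chr2:152105274-152105523 on the plus strand (Srxn1), chr10:82858956-82859205 on the plus strand (Txnrd1), chr3:122245307-122245556 on the plus strand (Gclm) and chr3:50443614-50443863 on the minus strand (Slc7a11).
Srxn1: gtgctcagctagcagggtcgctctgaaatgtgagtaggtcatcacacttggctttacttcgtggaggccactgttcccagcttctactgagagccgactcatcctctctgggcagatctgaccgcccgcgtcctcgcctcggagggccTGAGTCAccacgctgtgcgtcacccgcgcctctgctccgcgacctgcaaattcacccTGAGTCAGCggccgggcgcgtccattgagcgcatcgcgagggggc
Txnrd1: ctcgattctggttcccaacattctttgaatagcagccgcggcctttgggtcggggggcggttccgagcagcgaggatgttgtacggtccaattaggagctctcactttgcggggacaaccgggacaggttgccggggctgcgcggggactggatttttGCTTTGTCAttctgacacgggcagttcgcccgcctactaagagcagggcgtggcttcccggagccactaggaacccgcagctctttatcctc
Gclm: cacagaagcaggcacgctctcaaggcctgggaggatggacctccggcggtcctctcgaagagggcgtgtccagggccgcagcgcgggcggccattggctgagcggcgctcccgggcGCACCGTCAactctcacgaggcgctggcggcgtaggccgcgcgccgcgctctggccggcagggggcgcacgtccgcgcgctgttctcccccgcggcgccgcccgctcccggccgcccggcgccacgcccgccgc
Slc7a11: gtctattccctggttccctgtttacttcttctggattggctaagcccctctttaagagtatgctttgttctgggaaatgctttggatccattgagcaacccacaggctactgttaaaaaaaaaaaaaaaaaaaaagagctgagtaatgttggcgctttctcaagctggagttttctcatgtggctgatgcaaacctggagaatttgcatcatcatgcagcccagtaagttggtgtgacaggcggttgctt

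Each motif was searched on both strands of the promoter window, from 250 bases before to 50 after the start. The antioxidant response element core TGACNNNGC was found in 3 of the 9 member promoters, those of Srxn1, Txnrd1 and Gclm, and in 13.0% of all 21263 promoters of protein-coding genes. In Srxn1 this match lay from 28 to 36 bases after the start, beyond the stretch printed above. In Txnrd1 it ran from -92 to -84 and in Gclm from -134 to -126. The AP-1 core TGACTCA was found in the Srxn1 promoter alone among the members, at -102 to -96 and at -45 to -39, both on the opposite strand, and in 4.66% of all promoters. The nearer match continues into TGANTCAGC, the NFE2-type element in which the AP-1 core has a GC flank, at -45 to -37. This motif was added after the sequence had been seen, overlaps the AP-1 core, and was found in 1.08% of all promoters. The MAF half-site, searched only as TGCTGAC, was found in 0 of the 9 member promoters and 4.30% of all. Other forms of the half-site were not counted. The palindromic MAF recognition element, searched only in its form with an AP-1 centre, was found in none of the 21263 promoters.

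A MafA region was found in the window of 9 of the 10 genes, where 44.0% of all protein-coding genes had one. Gsr was the exception. An H3K4me3 region lay within 1 kb of a start at 9 of the 10, against 57.0% of all genes, and here Nqo1 was the exception. Starts were those of the promoter table, or either end of the gene where the table has no entry. Of the 9 marked members 8 had a MafA region, where 61.6% of all marked genes did. A MafA region lay within 1 kb of a start at 6 members (Hmox1, Gclm, Txnrd1, Slc7a11, Srxn1 and Txn1), against 19.9% of all genes and 33.4% of marked genes. At 8 members a MafA region overlapped an H3K4me3 region somewhere in the window, against 28.7% of all genes. That share was not worked out for marked genes alone, and 9 of the 10 members were marked. These shares describe a list chosen with earlier results known, and no test was made on them.

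The 9 genes carried 18 MafA regions, 9 with their summits inside the gene and 9 outside it. Over the summed windows of all 10 genes, with Gsr included, that is 3.24 regions per 100 kb of window against 1.48 over all protein-coding genes. The median window was 38355 bp for the members and 37169 bp for all genes. Hmox1 had 4 regions, Gclc and Gclm 3 each, Nqo1 and Slc7a11 2 each, and Txnrd1, Srxn1, Keap1 and Txn1 1 each. Their median fold enrichment was 5.17, against 5.75 over all 25894 MafA regions. The highest value per gene had a median of 6.02, against 6.19 over all protein-coding genes with a region. At or above the 90th percentile, where 10% of all MafA regions lie, were 3 of the 18, at Hmox1 and Srxn1, and 10 lay below the median region. The maps of the 10 windows show these regions by their distance from the start.

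**Figure D1:**
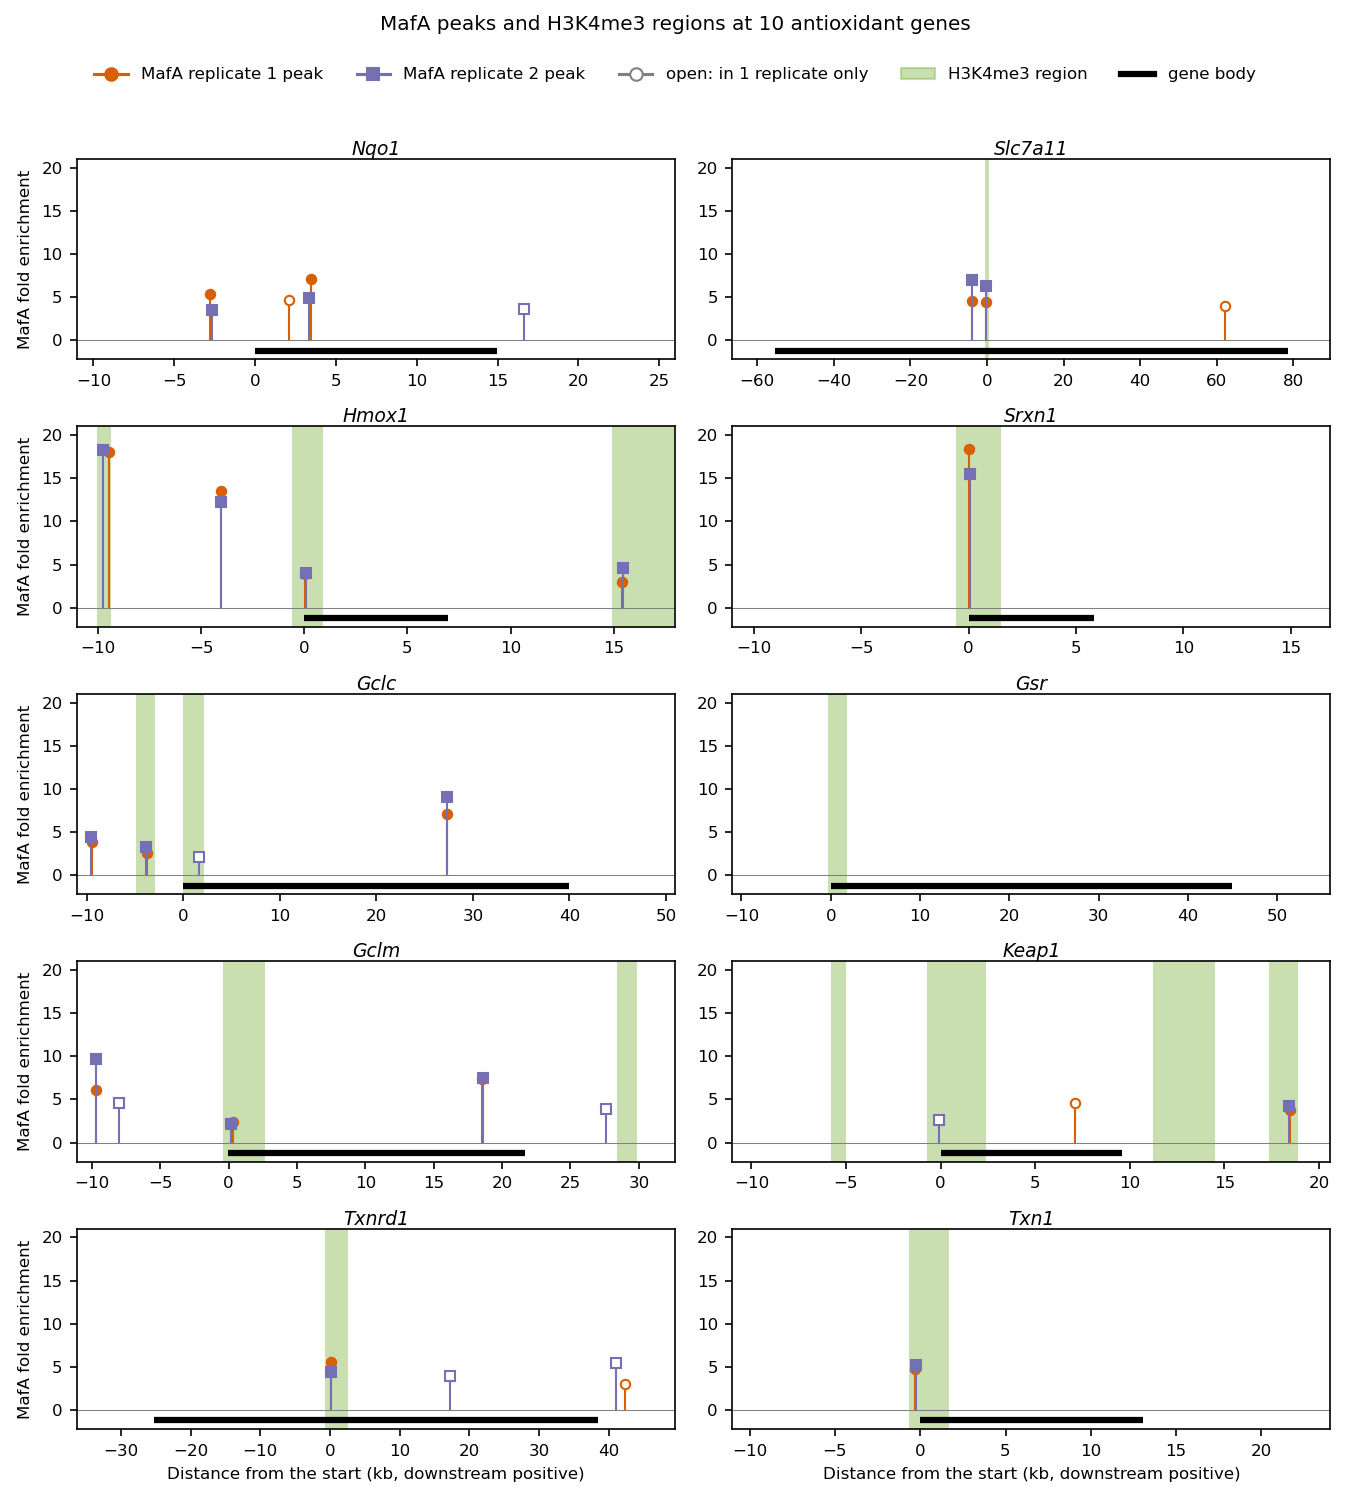
Fold enrichment of each MafA peak at its summit (vertical axis, linear) against distance from the start in kb (horizontal axis), for the 10 genes. Circles are replicate 1, squares replicate 2, open symbols peaks found in 1 replicate only, green bands H3K4me3 regions and black bars gene bodies. The start is the RefSeq start (the middle one of 3 for Txnrd1) or, for Hmox1, Gclc and Gsr, the H3K4me3-marked gene end. The high peaks lie at Srxn1's start and outside Hmox1, where both replicates exceed 12, and Gsr has none.

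Hmox1 encodes heme oxygenase 1, which breaks heme down to biliverdin, carbon monoxide and iron, and its mouse gene is known for a pair of distal upstream enhancers with clustered elements of the MAF and NRF2 type. The gene lies on chromosome 8 from 75093618 to 75100593. Its strongest MafA region lay on chromosome 8 from 75083270 to 75084697, with a fold enrichment of 18.04 in replicate 1 and 18.2 in replicate 2 (mean 18.1 ± 0.133, SD, n = 2). The summits lay 9470 and 9774 bp outside the gene, beyond the end that carried H3K4me3. They rested on 93 and 194 fragments, and the summits were 304 bp apart, the widest gap among the 18 regions, whose median gap was 48.5 bp. A low H3K4me3 region, at 6.29 and 5.86, lay beneath it.

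A second MafA region outside Hmox1, from 75089057 to 75090112, had 13.5 and 12.3 (mean 12.9 ± 0.884, n = 2). Its summits lay 4028 and 4024 bp beyond the same gene end, on 118 and 208 fragments, and no H3K4me3 region overlapped it. The 2 outer regions ranked at the 96.8th and 91.8th percentile of all MafA regions. At the marked gene end itself MafA was far lower, at 3.91 and 4.07 (mean 3.99 ± 0.114), with summits 56 and 87 bp inside the gene. H3K4me3 there was 12.7 and 12.8. The fourth region, at 3.02 and 4.59, lay 8420 and 8467 bp beyond the opposite end of Hmox1 and a mean of 432 bp from Mcm5, a gene of the replicative helicase, so it is closer to Mcm5 than to Hmox1. The replicate fold enrichments of both outer regions were above those of the other pair with no overlap.

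Srxn1 encodes sulfiredoxin, which repairs overoxidised peroxiredoxins. It lies on chromosome 2 from 152105524 to 152111376. Its only MafA region, from 152104896 to 152106963, had 18.4 in replicate 1 and 15.5 in replicate 2 (mean 16.96 ± 2.03, n = 2), at the 96.2nd percentile. The summits lay 23 and 80 bp after the start. The antioxidant response element core lies from 28 to 36 bases after the start, and the nearer AP-1 core match ends 39 bases before it. How often such a match lies this near a MafA summit elsewhere was not examined. The summits rested on 180 and 373 fragments, the largest numbers of the 18 regions in either replicate. H3K4me3 at the start was 19.2 and 23.7. Between Srxn1 and the strongest Hmox1 region the order differed by replicate, Srxn1 being higher in replicate 1 and lower in replicate 2, so they could not be ranked. Both were above every region of the other members in both replicates.

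Glutathione synthesis is represented by Gclc and Gclm, the catalytic and modifier subunits of glutamate-cysteine ligase, and by Slc7a11, the light chain of the cystine-glutamate exchanger that brings in cystine for it. At Gclc, on chromosome 9 from 77754535 to 77794489, the strongest MafA region lay inside the gene from 77781628 to 77782666, with 7.09 and 9.11 (mean 8.10 ± 1.43, n = 2) on 27 and 65 fragments. Its summits were 27297 and 27303 bp from the H3K4me3-marked gene end. A region 9519 and 9528 bp outside the marked end had 3.82 and 4.42 on 9 and 19 fragments, the fewest in each replicate among the 18. That region was lost when a −log10 q of at least 5 was required. Another, 3813 and 3926 bp outside, had 2.57 and 3.32 and overlapped an H3K4me3 region of 10.3 and 12.1. At the marked end itself H3K4me3 was 17.8 and 15.1, and the nearest MafA peak, 1604 bp inside, was found in replicate 2 only, at 2.16. MafA was thus called in both replicates away from the main H3K4me3 region of Gclc and not over it.

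Gclm, on chromosome 3 from 122245487 to 122267215, had its strongest MafA region upstream, from 122235595 to 122236990, with 6.14 and 9.63 (mean 7.89 ± 2.47, n = 2). The summits lay 9712 and 9694 bp before the start. A region inside the gene, from 122263833 to 122265038, had nearly the same value in both replicates, 7.42 and 7.44 (mean 7.43 ± 0.0124). At the start itself MafA had 2.44 and 2.15, the lowest mean of all 18 regions, at the 0.599th percentile, although 58 and 105 fragments lay there. Here the modelled background was 23.2 and 36.0, the highest of the 18, and H3K4me3 was 28.7 and 25.1, the highest mean at any member's start. The antioxidant response element core printed for Gclm lies before the start, and the MafA region did not reach into that stretch.

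Slc7a11 spans chromosome 3 from 50364936 to 50499087, and its RefSeq start in the promoter table is inside that span, at 50443613. A MafA region from 50443015 to 50444480 covered it, with 4.44 and 6.26 (mean 5.35 ± 1.29, n = 2) and summits 306 and 313 bp before the start. A second, from 50447004 to 50447741, had 4.59 and 7.03 (mean 5.81 ± 1.73) and lay 4042 and 3872 bp before the start. It rested on 11 and 31 fragments, and was lost when a −log10 q of at least 5 was required. Its value was above that of the first region in each replicate, while the ranges of replicate values of the 2 regions overlapped. H3K4me3 at this start was weak and unequal, at 2.77 in replicate 1 and 6.19 in replicate 2, with a −log10 q of 3.34 and 11.4. It was lost when a −log10 q of at least 5 was required.

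The thioredoxin system is represented by Txn1, thioredoxin itself, and Txnrd1, the cytosolic reductase that regenerates it. Txnrd1 lies on chromosome 10 from 82833951 to 82897724. Its MafA region, from 82858906 to 82861145, spanned the middle and the last of its 3 RefSeq starts, at 82859206 and 82860341, with 5.58 and 4.41 (mean 4.995 ± 0.824, n = 2) on 110 and 176 fragments. The summits were 2 bp apart, the smallest gap of the 18, and lay 151 and 153 bp after the middle start. H3K4me3 over the same starts was 18.8 and 16.1. Neither target had a region at the first start. Beyond the far end of the gene, replicate 1 had a peak of 3.01 and replicate 2 one of 5.40 that did not overlap.

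Txn1, on chromosome 4 from 57943373 to 57956411, had 1 MafA region, from 57956180 to 57957070, with 4.78 and 5.17 (mean 4.97 ± 0.274, n = 2). The summits lay 311 and 261 bp before the start, on 56 and 132 fragments. H3K4me3 at the start was 17.6 and 19.7. The replicate 1 peak was 285 bp wide and the replicate 2 peak 891 bp, and the region was lost when 50% reciprocal overlap was required.

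Nqo1 encodes the quinone reductase that is a standard reporter of NRF2 activity. It lies on chromosome 8 from 107388225 to 107403205 and had no H3K4me3 peak in its window in either replicate. MafA regions were nevertheless found on both sides of its start. The one inside the gene, from 107399177 to 107400245, had 7.13 and 4.91 (mean 6.02 ± 1.57, n = 2), with summits 3431 and 3318 bp after the start. The one before the start, from 107405672 to 107406170, had 5.32 and 3.53 (mean 4.42 ± 1.27), at 2798 and 2687 bp. At both, replicate 1 was higher, and they rested on 42 and 71 and on 23 and 27 fragments. Only the region inside the gene was left when a −log10 q of at least 5 was required. Nqo1 was the only member with MafA regions and none of them over H3K4me3.

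Keap1, the cytoplasmic inhibitor of NRF2, lies on chromosome 9 from 21229730 to 21239332. Its start carried H3K4me3 of 23.4 and 17.9, and MafA was called there in replicate 2 only, at 2.57 on 71 fragments, 74 bp before the start. A peak inside the gene, at 4.61 on 14 fragments, was found in replicate 1 only. The single MafA region in its window, from 21220742 to 21221956, had 3.79 and 4.28 (mean 4.03 ± 0.344, n = 2) and lay 8878 and 8832 bp beyond the far end of the gene, over an H3K4me3 region of 7.31 and 7.95. It was a mean of 7627 bp from Pde4a, a phosphodiesterase gene, and so nearer to that gene. With windows of 5 kb or the gene body alone, Keap1 had no MafA region.

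Gsr encodes glutathione reductase, which returns oxidised glutathione to its reduced form. It lies on chromosome 8 from 33653238 to 33698162, with H3K4me3 of 17.8 and 17.2 at one end. Neither MafA list held a peak in its 64925 bp window. The lists hold called peaks only, so a signal below the calling threshold cannot be told from none. With 50 kb on either side, a MafA region of 4.94 came within reach.

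Ordered by the highest mean fold enrichment, the members ran Hmox1, Srxn1, Gclc, Gclm, Nqo1, Slc7a11, Txnrd1, Txn1 and Keap1. The gap between Srxn1 (15.5 to 18.4) and Gclc (7.09 to 9.11) was free of overlap between replicate values. Neighbours from Gclc down to Txn1 overlapped in their replicate values. Keap1 was lower than Txn1 in both replicates (3.79 and 4.28 against 4.78 and 5.17). The plot of replicate against replicate shows the member regions within the spread of all MafA regions. Of the member peaks, 4 of 22 in replicate 1 and 7 of 25 in replicate 2 had no partner in the other replicate, with fold enrichment from 2.16 to 5.40. Over the whole lists 18.8% and 39.2% of peaks had none.

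**Figure D2:**
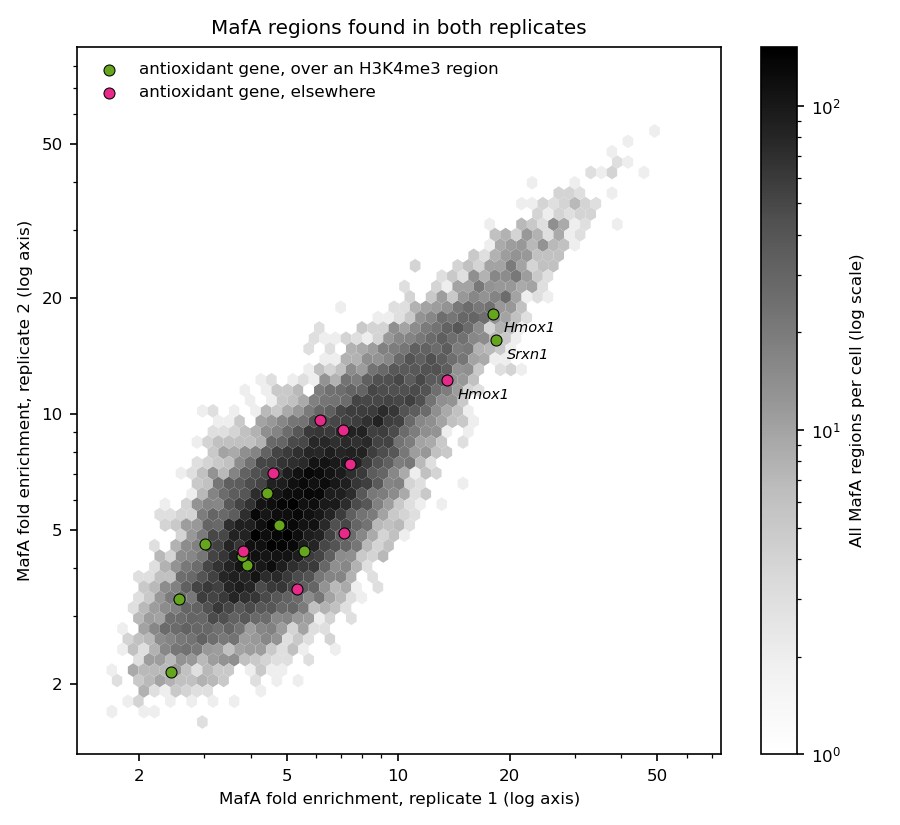
Fold enrichment of MafA regions in replicate 1 (horizontal) and replicate 2 (vertical), both on log axes. Grey cells count all 25894 regions, green points are the 10 member regions over an H3K4me3 region and pink points the other 8. Hmox1 (18.04 and 18.2, and 13.5 and 12.3) and Srxn1 (18.4 and 15.5) stand above the other members.

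MafA regions of the members lay over H3K4me3 more often than not, 10 of 18 against 30.5% of all MafA regions in or within 10 kb of a protein-coding gene. Marked genes made up 9 of the 10 members and 57.0% of all genes, and no share was worked out for marked genes alone. The regions nearer to Mcm5 and to Pde4a are among the 10. Over H3K4me3 the median fold enrichment of the member regions was 4.504, against 6.72 for the 8 elsewhere. Across all MafA regions the medians were 4.40 and 6.14. Fragments at the summit ran the other way among the members. Their median was 56 in replicate 1 and 128 in replicate 2 over H3K4me3, against 27 and 55 elsewhere. The modelled background was also higher over H3K4me3, with medians of 13.7 and 21 against 3.23 and 4.72, and its part in the lower fold enrichment was not tested. Genes were also ranked by fragments, as the mean of both replicates before scaling, at the region of each gene with the most fragments. Srxn1 came first, followed by Hmox1 and Txnrd1, while Slc7a11 came last. At Hmox1, Gclc, Gclm and Slc7a11 that region was not the one with the highest fold enrichment. Srxn1 and the outer Hmox1 regions had many fragments over a low or moderate background, as the plot of fragments against background shows.

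**Figure D3:**
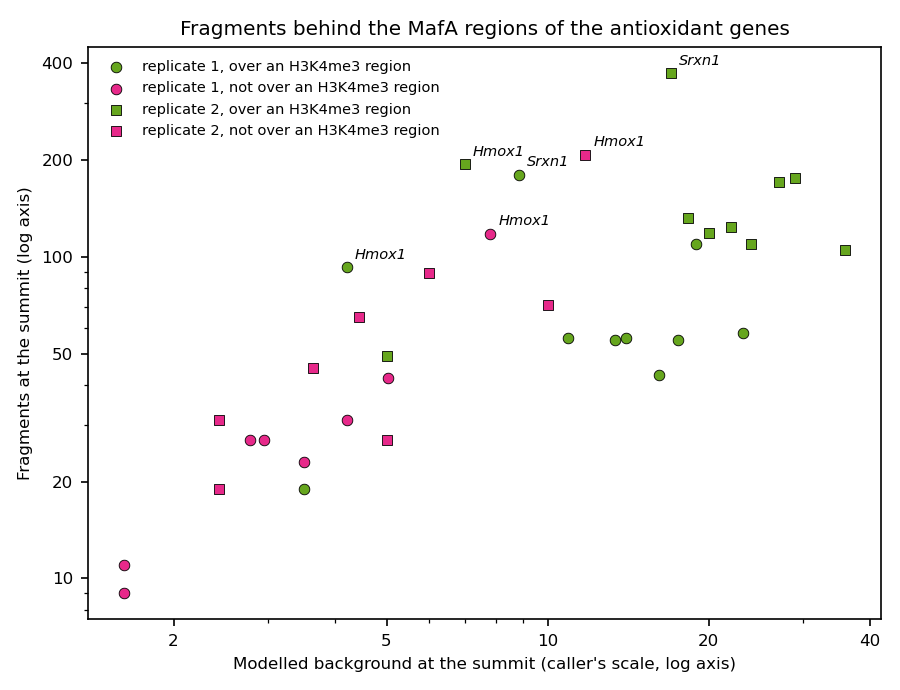
Fragments at the summit (vertical) against the modelled background on the peak caller's scale (horizontal), both on log axes, for the 18 MafA regions in replicate 1 (circles) and replicate 2 (squares). Green marks regions over H3K4me3 and pink the others. Srxn1 has 180 and 373 fragments over a background of 8.84 and 17, whereas the start of Gclm has 58 and 105 over 23.2 and 36.0. Fragment numbers were counted before the peak caller's scaling, which differed between the 2 replicates, so these numbers are not on one scale.

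Other genes of the pathway were read from 3 lists. Of 10 regulators, 8 had a MafA region, against 44.0% of all genes and 61.6% of marked genes. An H3K4me3 region lay at a start of 9, against 57.0% of all genes. The highest MafA values were 26.03 at Bach2, 13.6 at Maff and 11.9 at Mafg. Bach2 is a repressor that pairs with small MAF proteins, and Maff and Mafg are small MAF genes. Bach2 is long, with a window of 367697 bp and 20 regions, and had no H3K4me3 region at a start. No region was found at Nfe2l2, the gene of NRF2 itself, or at Mafk, and both carried H3K4me3 at a start. Mafa had 2 regions, the stronger with 4.91 and 5.39.

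Of 24 other NRF2 targets, 16 had a MafA region (66.7%), against 44.0% of all genes and 61.6% of marked genes. The H3K4me3 mark was found at 20 of the 24, against 57.0% of all genes. The strongest MafA regions were at Abcc4, a drug efflux pump, with 16.1, Osgin1 with 15.3, and Gstm1, a glutathione transferase, with 14.1. Gstm1 has close paralogs beside it, so that the assignment of its reads is uncertain. Of 16 other antioxidant enzymes, 12 had a region (75.0%) and 14 the mark, beside the same shares over all genes and marked genes. Here the strongest were Glrx (15.6), Txn2 (11.8) and Glrx5 (10.9), a glutaredoxin, the mitochondrial thioredoxin and a mitochondrial glutaredoxin. Sod3, Gpx4, Prdx4 and Prdx5 had none. Over the genes with a region, leaving out those without, the median of the highest value per gene was 7.64 for 8 regulators, 8.92 for 16 other targets and 7.70 for 12 other enzymes. It was 6.02 for the 9 members with a region and 14.4 for the 10 beta cell markers. Whether these lists differ from the members was not tested.

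**Figure D4:**
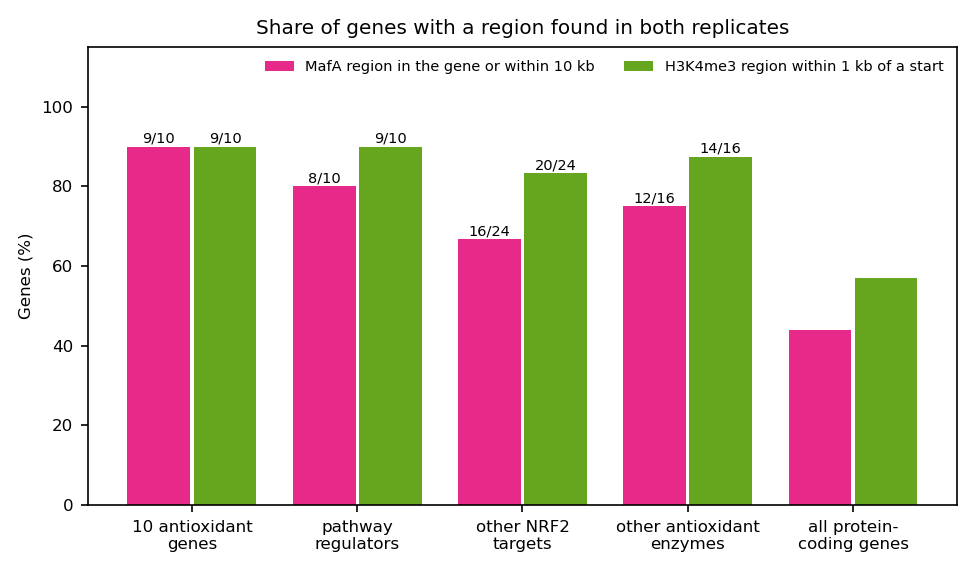
Percentage of genes (vertical axis, from 0) with a MafA region in the gene or within 10 kb (pink) and with an H3K4me3 region within 1 kb of a start (green), for the 10 members, the 3 pathway lists and all 21887 protein-coding genes. Counts stand above the bars. Among the members 9 of 10 have each, against 44.0% and 57.0% of all genes. Of genes with H3K4me3 at a start, 61.6% had a MafA region (not drawn).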

How the data were processed

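Groups came from the sample titles. Peaks were called by the authors with MACS2 on each library, per the submitters' processing notes, which also name the builds GRCm38 and mm10. The MACS2 version, aligner, duplicate handling and control library are not given in the sources used here. Fold enrichment was deposited as a linear ratio, (pileup + 1) / (background + 1). The deposited −log10 values are those of the p-value and q-value at the summit, and the lowest −log10 q was 2.00. The deposited score was not used.

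Scripts ran in Python 3.11.15 with pandas 2.3.3, scipy 1.17.1, numpy 2.4.6 and, for figures, matplotlib 3.10.9. Replicate peaks sharing at least 1 bp formed a region. Positions are 1-based. Whole fragments were recovered from fold enrichment and p-value with scaling factors of 0.415, 0.997, 1 and 0.746 for H3K4me3 replicates 1 and 2 and MafA replicates 1 and 2, which solved 99.9%, 100%, 100% and 100% of peaks to a relative 1e-04 of the deposited −log10 p. The routines were tested on simulated data. The percentile of a region is its rank by mean fold enrichment.

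The members and lists were chosen with earlier results of these data known. No test was run on the lists for that reason, and because the peak lists hold called peaks only. A comparison of 2 libraries against 2 could also not give an exact permutation p below 0.333. All results are therefore descriptions. No genome was used, so motifs were searched in promoters and not at summits. Alternatives were a stricter threshold, equal numbers of peaks, reciprocal overlap, merging, other windows, other measures of strength, and leaving out each library.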

Additional observations from a re-analysis of the deposited data

How the results depend on the processing

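The counts rest on 2 libraries per target and on called peaks only. The number of members with a MafA region was 8 for the gene body alone (31.7% of all genes), 10 with 50 kb either side (66.1%), 9 without MafA replicate 1 (58.5%) and 8 or 9 under the other settings, except among the 16020 strongest peaks of every library, where it was 4 (Hmox1, Gclc, Gclm and Srxn1), as fewer peaks entered and the share over all genes was 22.9%. That setting also left 6 MafA regions, 2 members with one over H3K4me3 (7.78% of all genes), and a median of the highest fold enrichment of 12.5. The number of regions was 10 for the gene body alone and 35 with 50 kb either side, and 22 to 25 with 1 MafA replicate left out, which drops the need for a partner. It was 15 with a −log10 q of at least 5, which lost regions at Nqo1, Gclc and Slc7a11. The highest value of Slc7a11 then became 5.35. The median of the highest fold enrichment, 6.02, became 6.95 with 50% reciprocal overlap, 6.72 with 5 kb, 8.03 with 50 kb, and 6.02 to 7.09 with each library left out. The median moves with which members and regions enter, and other causes were not tested. The number of members with H3K4me3 at a start was 8 or 9 under every setting tried. The highest value of Hmox1 dropped to 3.99 for the gene body alone, since its strong regions lie outside, and with 50 kb those of Gclm, Srxn1, Txnrd1 and Txn1 became 25.0, 19.2, 14.1 and 7.95, which puts Gclm and Srxn1 above Hmox1 at 18.1. Keap1 ranked 5th by fragments and 9th by fold enrichment, where the fragment rank takes unscaled means and the region of each gene with the most fragments. Distances of motifs from MafA summits were not analysed across regions, because no genome sequence was used here. The positions given for Srxn1 therefore have no such share beside them. No paired analysis was possible because the results are counts and values that come from no test.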
